A study of Mus musculus with 6 samples.

Results

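The respiratory chain genes were followed across 6 RNA libraries from Cd11b-enriched cells of the mouse heart. Members were the protein-coding genes whose symbols start with Nduf, Uqcr, Cox4, Cox5, Cox6, Cox7, Cox8 or Atp5, the genes Sdha to Sdhd, and the mitochondrially encoded mt-Nd, mt-Co, mt-Cytb and mt-Atp genes. The rule uses names only and gave 107 of the 55487 gene identifiers in the count tables, 94 encoded in the nucleus and 13 in mitochondrial DNA. By symbol, 53 belonged to complex I, 4 to complex II, 9 to complex III, 21 to complex IV and 20 to complex V. The 8 Ndufaf genes among the complex I members encode assembly factors, which help to build the complex and are not part of it.

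Each library came from 1 pool of 5 or 6 hearts of C57BL/6 mice, digested to non-myocyte cells and enriched with magnetic beads against Cd11b, an integrin of myeloid cells. There were 3 pools of mice with floxed Egfr alleles and no deletion (Egfr f/f, WT) and 3 pools with Egfr, the epidermal growth factor receptor gene, deleted in myeloid cells (Egfr mKO, KO). The Cre driver and the age of the animals were not given in the sources used here. Libraries held 17780707 to 27485129 reads in genes. Egfr was at 54.7, 43.0 and 44.7 CPM (reads relative to the scaled library size) in the WT pools and at 18.5, 16.0 and 17.4 CPM in the KO pools. Its log2 fold change of -1.46 (SE 0.135) passed the test (edgeR, adjusted p = 0.0449). Fewer cells of a type and less RNA per cell cannot be told apart in such bulk libraries. Macrophage markers were abundant in every pool, summing to 6965 to 13842 CPM over 13 genes. Fibroblast markers, 10 genes, summed to 4547, 9518 and 14768 CPM in the WT pools and to 5388.5, 4729 and 3911 CPM in the KO pools. In WT pools 2 and 3 they exceeded the macrophage sums of 6965 and 8707 CPM. Endothelial markers, 10 genes, summed to 2090, 2424 and 3490 CPM in WT and 1130, 1177 and 1486 CPM in KO, and mural markers of the vessel wall were present too. 3 pools stood apart in one respect each: erythroid markers summed to 1876 CPM in WT pool 1 against 36.2 to 142 CPM elsewhere, T cell markers to 577 CPM in WT pool 2 against 27.3 to 226 CPM elsewhere, and neutrophil markers to 2617 CPM in KO pool 1 against 521 to 1813 CPM elsewhere.

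The respiratory chain sits in the inner mitochondrial membrane. Complexes I and II pass electrons to ubiquinone, complex III passes them on to cytochrome c, and complex IV hands them to oxygen. Complexes I, III and IV pump protons, and complex V, the ATP synthase, lets the protons flow back to make ATP. Complex II is encoded wholly in the nucleus, whereas the other complexes combine nuclear subunits with a few hydrophobic subunits made inside the organelle. In heart muscle some complex IV subunits exist as a muscle isoform beside a ubiquitous one, and pericytes, the contractile cells around capillaries, are known for Ndufa4l2 and Cox4i2.

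The mitochondrial genes fell into a counted part and an almost uncounted part. The 6 genes mt-Nd1, mt-Nd2, mt-Co1, mt-Nd4, mt-Nd5 and mt-Cytb had 34665 to 371639 reads each per library. The contiguous block of mt-Co2, mt-Atp8, mt-Atp6, mt-Co3, mt-Nd3 and mt-Nd4l, at chrM:7013-10173 of GRCm38, had 0 to 27 reads per gene and library. These 6 genes gathered 228 reads in total over the 6 libraries. The gene mt-Nd6, the one mitochondrial member on the minus strand, lay between, with 710 to 2723 reads.

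The annotation (GENCODE M21) holds a run of pseudogene copies of the same block on the minus strand of chromosome 1, at chr1:24611535-24616197. Gm28661 matched mt-Co2 over 681 bases with 0 differences, Gm10925 matched mt-Atp6 over 678 bases with 0, Gm28437 matched mt-Co3 over 783 bases with 0, and Gm10222 matched mt-Nd4l over 294 bases with 0. Gm28438 matched mt-Nd3 over 345 bases with 1 difference, T3C, counted from the first base of the gene. The starts of 3 of these pairs are printed to show how little sets a mitochondrial read apart from a nuclear one. The capital letter marks the differing base of the mt-Nd3 pair, and the other 2 pairs hold no difference. All are given from 5′ to 3′ on the strand of the gene. The mitochondrial stretches lie on the plus strand at chrM:9459-9518, chrM:7013-7072 and chrM:7927-7986, and the copies on the minus strand at chr1:24613060-24613119, chr1:24615506-24615565 and chr1:24614592-24614651, in the order printed.
mt-Nd3: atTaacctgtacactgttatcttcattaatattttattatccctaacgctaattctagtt
Gm28438: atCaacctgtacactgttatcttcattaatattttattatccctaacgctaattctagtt
mt-Co2: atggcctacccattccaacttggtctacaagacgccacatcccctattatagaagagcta
Gm28661: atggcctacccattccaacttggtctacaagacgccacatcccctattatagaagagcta
mt-Atp6: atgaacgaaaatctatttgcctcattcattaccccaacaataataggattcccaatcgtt
Gm10925: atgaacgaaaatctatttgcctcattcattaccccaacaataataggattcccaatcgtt

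Of all 50-base windows of these genes, 100% in mt-Co2, 99.5% in mt-Atp6, 99.9% in mt-Co3, 98.0% in mt-Nd3 and 98.8% in mt-Nd4l also occurred in another annotated gene. The copies themselves held few reads, from 8 for Gm10222 to 73 for Gm28661 over all 6 libraries. The gene mt-Atp8 has no annotated copy of its own, but lies between mt-Co2 and mt-Atp6 in the block. In the other genes the share was 62.2% in mt-Nd4, whose first 876 bases match Gm28439. The share in mt-Co1 was 51.1% over 3 other genes together. Gm29216, which matches its bases 1054 to 1545 with 6 differences, held 28.7% of the mt-Co1 windows. It was 8.19% in mt-Nd2, 7.61% in mt-Nd5 and 0% in mt-Nd1, mt-Cytb and mt-Nd6. Reads that aligned to several places, 7.58% to 8.67% of the reads per library, were not assigned to a gene in these tables. How many of them came from the block was not tested, so the levels of its 6 genes cannot be read from these counts, and mitochondrial levels below rest on the other 7 genes.

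**Figure D1:**
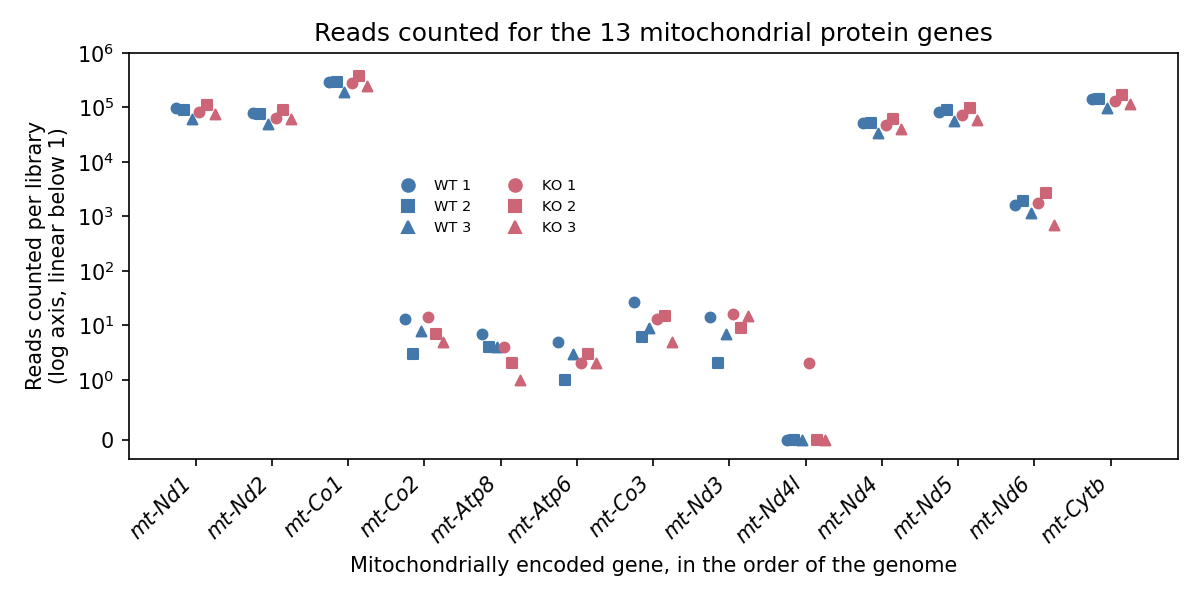
Reads counted in each library (log axis, linear below 1) for the 13 mitochondrial protein genes in genome order, with WT pools in blue and KO pools in red. The 6 adjacent genes from mt-Co2 to mt-Nd4l sit at 0 to 27 reads in every library, while their neighbours mt-Co1 and mt-Nd4 have 34665 reads or more.

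Nuclear members were less affected by shared sequence: the median share of 50-base windows found in another gene was 0.86%, 41 of 94 shared none, and 9 shared over 20%. Among the members described below, the shares were 38.4% for Atp5g2, 28.5% for Ndufa13, 25.5% for Uqcrb and 22.1% for Cox7c, so part of their reads could have been left unassigned or divided with a copy.

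Many respiratory genes carry binding motifs of the nuclear respiratory factor NRF1 near their start, and the promoter table allowed this to be looked up. Of the 91 nuclear members that entered the test, 73 had a promoter in RefSeq (GRCm38.p6, 250 bases before to 50 after the start). A gene was counted as holding a motif, on either strand, if any of its promoters held it. The NRF1 motif, GCGCA and GCGC with 1 free base between them, was held by 19 of 73 members (26.0%). Of all 10847 tested genes with an entry, 10.6% held it. The ERR motif CAAGGTCA was held by 5.48% of members and 1.25% of all genes, and the YY1 motif AAGATGG by 15.1% and 7.93%. The ETS motif CCGGAAG was held by 24.7% and 18.7%, and the HIF motif ACGTGC by 5.48% of members and 9.09% of all genes. Members with the NRF1 motif had a median log2 fold change, KO over WT, of 0.07 and those without it 0.12. A match is a description of letters and not a bound site. The promoters of Sdha at chr13:74350191-74350490 and of Cox6a1 at chr5:115348909-115349208, both on the minus strand, are shown because they hold several copies; NRF1 matches are in capitals.
Sdha: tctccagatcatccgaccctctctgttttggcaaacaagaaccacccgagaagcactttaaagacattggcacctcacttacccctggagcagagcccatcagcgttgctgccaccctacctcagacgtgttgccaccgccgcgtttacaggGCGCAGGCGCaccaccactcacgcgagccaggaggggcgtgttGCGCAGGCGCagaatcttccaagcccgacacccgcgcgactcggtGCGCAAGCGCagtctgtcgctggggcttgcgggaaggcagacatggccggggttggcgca
Cox6a1: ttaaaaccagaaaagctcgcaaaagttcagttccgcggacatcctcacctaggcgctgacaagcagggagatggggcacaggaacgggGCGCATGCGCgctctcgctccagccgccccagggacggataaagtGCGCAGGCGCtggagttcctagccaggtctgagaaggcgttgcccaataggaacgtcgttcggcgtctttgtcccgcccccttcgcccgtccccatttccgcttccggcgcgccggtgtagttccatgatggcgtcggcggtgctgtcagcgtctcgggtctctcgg

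Together the nuclear members took 0.482%, 0.522% and 0.527% of the reads in genes in the WT pools and 0.477%, 0.522% and 0.565% in the KO pools. The mitochondrial members took 2.76%, 4.19% and 2.32% in the WT pools and 2.51%, 3.59% and 2.31% in the KO pools. Both shares overlapped between the groups. The mitochondrial share varied far more between pools of one group than the nuclear share did, and pool 2 was the highest of its group in both genotypes. Deviations from the group means over the tested genes correlated at 0.10, -0.16 and 0.01 between same-numbered pools. The numbers were therefore not used as pairs, though 3 such values cannot exclude a pairing.

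The ratio of mitochondrial to nuclear member reads, which no library scaling can alter, was 5.72, 8.04 and 4.40 in the WT pools and 5.27, 6.88 and 4.09 in the KO pools. The groups overlapped, and WT pool 2 lay above every KO pool. Over the 7 counted mitochondrial genes and the 83 nuclear members at a mean of at least 5 CPM, the mean log2 level differed, mitochondrial minus nuclear, by 5.93 ± 0.463 in WT and 5.72 ± 0.474 in KO (SD, n = 3 each). The share of reads that fell outside annotated genes was highest in WT pool 2 (8.62%) and lowest in KO pool 3 (5.90%), and these pools also had the highest and the lowest ratio. It was 7.10% and 6.28% in the other two WT pools and 6.80% and 7.16% in the other two KO pools. Its part in the ratio was not tested.

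**Figure D2:**
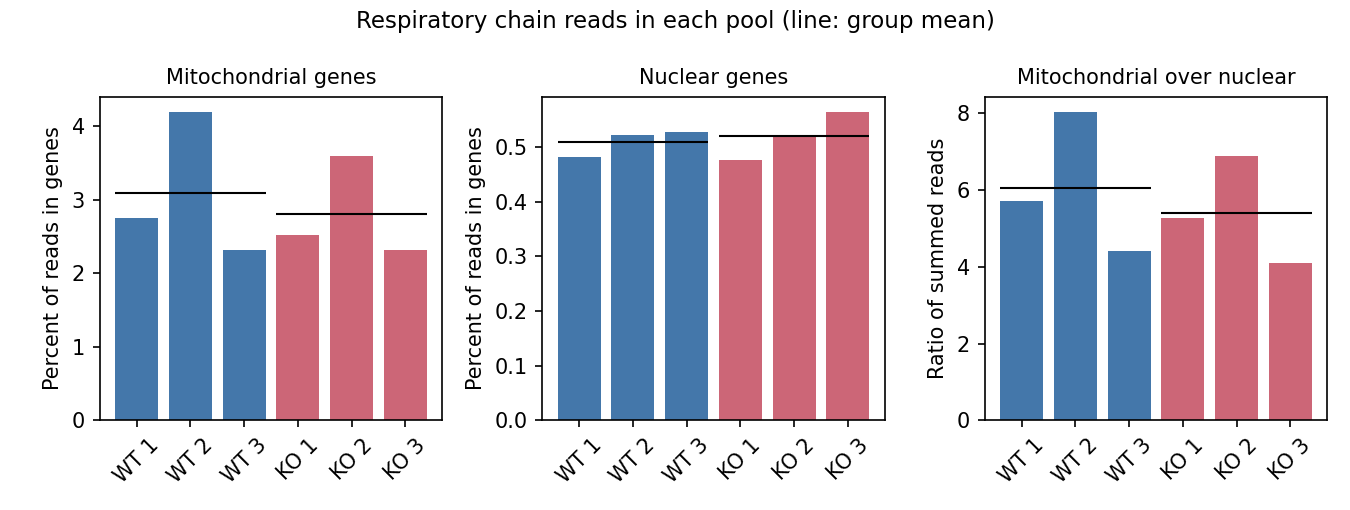
Percent of reads in genes taken by the mitochondrial members (left) and the nuclear members (middle) and the ratio of the 2 (right), 1 bar per pool, WT in blue and KO in red, with a line at each group mean. The ratio runs from 4.40 to 8.04 in WT and from 4.09 to 6.88 in KO, so the groups overlap.

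Levels were compared between genes as CPM per kilobase of the principal transcript, averaged over the 6 pools. Among nuclear subunits, without assembly factors and tissue isoforms, the median level was lowest in complex I, at 35.9 CPM per kilobase (37 genes). It was 53.9 in complex II (4 genes), 66.7 in complex III (8 genes), 70.2 in complex V (17 genes) and 86.5 in complex IV (11 genes). The ranges within the complexes overlapped widely, from 0.944 for Ndufb2 to 89.7 for Ndufa4 in complex I and from 43.9 for Cox7b to 297 for Cox4i1 in complex IV. The length used weighs on such values: it was 4371 bases for Ndufb2 and 610 for Ndufa4. Ndufa4 is counted with complex I by its symbol but was later assigned to complex IV. The order of the complexes was not tested. The highest nuclear member was Atp5b, the catalytic beta subunit of the ATP synthase head, at 320.0 CPM per kilobase. Atp5a1, the alpha subunit of the same head, stood at 188.

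The counted mitochondrial genes, mt-Nd6 apart, stood above every nuclear member on this scale. The level was 7632 CPM per kilobase for mt-Co1, the catalytic core of complex IV, 4933 for mt-Cytb of complex III, and 3773, 2823, 1785 and 1460 for the complex I genes mt-Nd1, mt-Nd2, mt-Nd5 and mt-Nd4. The first part of mt-Nd4 and parts of mt-Co1, its end among them, are shared with copies, so the values of these 2 genes may be too low. mt-Nd6 reached 135 CPM per kilobase and overlapped the range of the nuclear members. The strand setting of the counting was not given in the sources used here, so reads of mt-Nd6 and of transcripts from the opposite strand cannot be told apart.

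**Figure D3:**
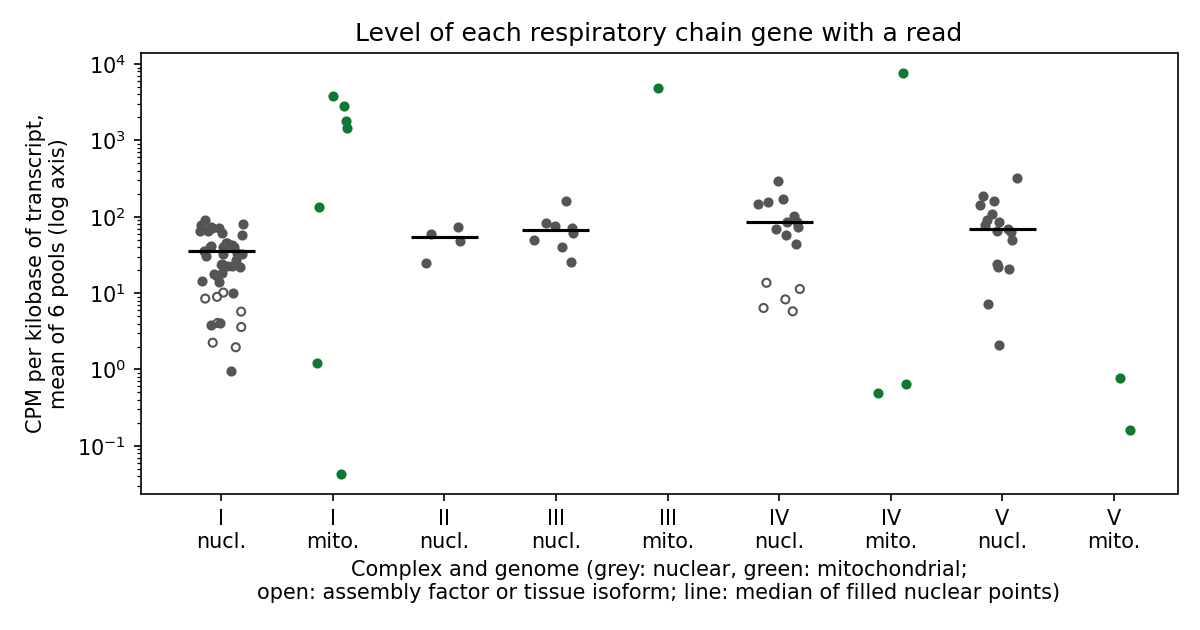
Mean level over 6 pools, as CPM per kilobase on a log axis, of each member with at least 1 read, by complex and genome. Filled grey points are nuclear subunits, open points assembly factors and tissue isoforms, green points mitochondrial genes, and lines the median of the filled grey points. The nuclear medians lie between 35.9 and 86.5, and the counted mitochondrial genes lie above them.

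Between pools the nuclear members were steady. Of the 91 tested, 78 had a highest pool under 1.5 times the lowest, and the median of that ratio was 1.29. Atp5a1 was the steadiest at 1.10, and Ndufa4l2 the most variable at 3.22. The 3 members with no read in any library were Cox7b2 and Cox8c, both known from testis, and a second identifier of Atp5o. A count of 0 allows a level of up to 3 reads, or 0.109 to 0.169 CPM depending on the library, from counting error alone.

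KO was compared with WT to ask how myeloid Egfr deletion alters expression in the Cd11b-enriched cells. No member passed the test at an adjusted p of 0.05 in edgeR, whose test called 2 of 15707 genes (0.0127%), and 2 members had an unadjusted p under 0.05 (background 15.3%). These were Ndufb3, higher (background 4.77%), and Ndufa4l2, lower (background 10.6%). In limma-voom no member was called. In DESeq2, which called 4.39% of its genes lower, 1 member was called lower, Ndufa4l2. Fold changes of nuclear members were small: 84 of 91 (92.3%) lay within 0.3 of 0 on the log2 scale, against 62.7% of all genes tested. The 2 shares are not on equal terms, since the median standard error was 0.128 for nuclear members and 0.201 over all genes tested. P-values here measure the spread between 3 and 3 pools and not between single animals.

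Small as they were, the nuclear fold changes leaned to one side. The fold change was positive for 71 of 91 nuclear members (background 50.8%), with a median of 0.09 against 0.01 over all genes tested. The lean rested in part on KO pool 3: without it, 54 of the nuclear members were positive. With total counts in place of TMM scaling, 63 were. Every KO pool lay above every WT pool for 11 nuclear members (12.1%, background 9.59%) and below for 1, Cox7a1 (background 10.1%), so the count of separated members was near that of all genes. The summed level of the nuclear members was 5023, 4836 and 5240 CPM in the WT pools and 5009, 5164 and 5690 CPM in the KO pools, and the groups overlapped.

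The 7 counted mitochondrial genes had fold changes from -0.22 (mt-Nd5) to -0.02 (mt-Co1), with a median of -0.12 and standard errors of 0.262 to 0.445. The groups overlapped for each of them. For mt-Co1 the level was 11264, 15286 and 9014 CPM in WT and 10962, 14597 and 9626 CPM in KO. For mt-Cytb it was 5534, 7462 and 4616 CPM in WT and 5100, 6686 and 4462 CPM in KO. The higher WT mean came from WT pool 2, and without that pool all 7 fold changes were positive, from 0.05 for mt-Nd5 to 0.21 for mt-Nd6. The edgeR adjusted p for the 7 genes lay between 0.772 and 0.985.

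The 2 mitochondrial ribosomal RNA genes, which are no members and were looked at after their values were seen, had negative fold changes, with groups that overlapped for mt-Rnr1 and with every KO pool below every WT pool for mt-Rnr2 (background 10.1%). mt-Rnr1 was at 1247, 1649 and 1245 CPM in WT and 959, 1276 and 895 CPM in KO (log2 fold change -0.40, SE 0.208, edgeR adjusted p = 0.401). mt-Rnr2 was at 3439, 4056 and 3430 CPM in WT and 2717, 3367 and 1927 CPM in KO (log2 fold change -0.45, SE 0.253, edgeR adjusted p = 0.443). Neither passed the test.

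**Figure D4:**
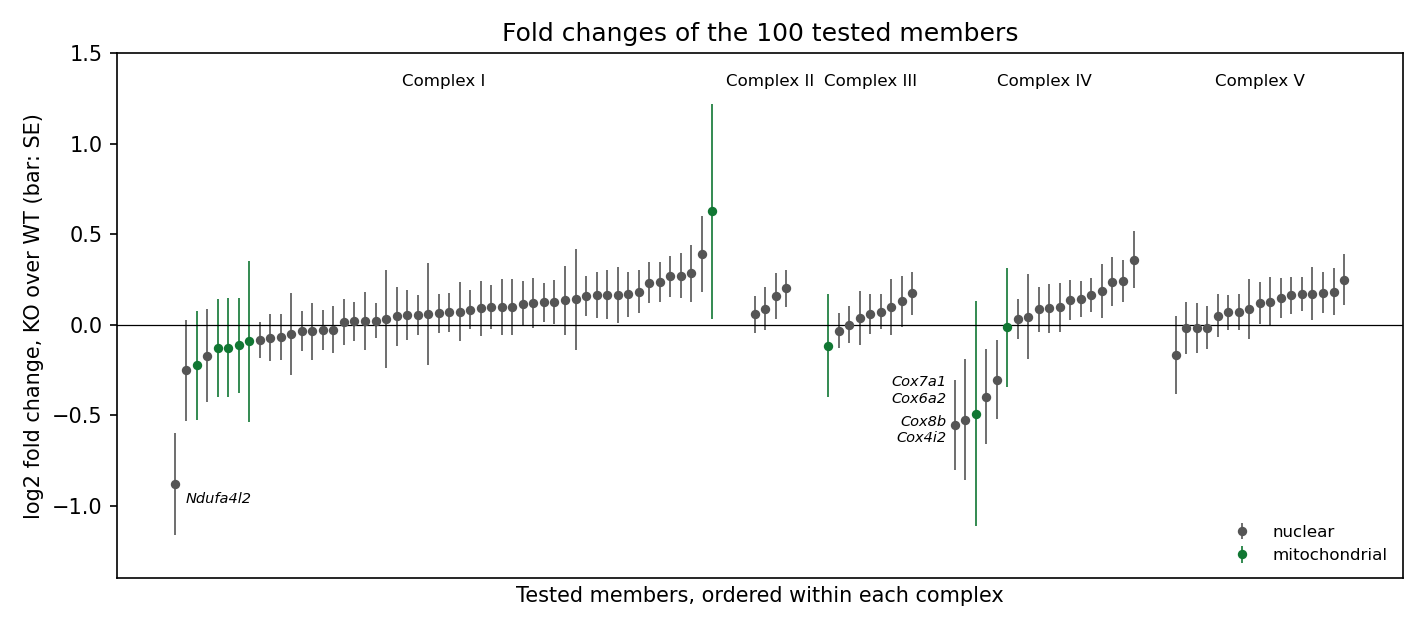
Log2 fold change, KO over WT, with its standard error for the 100 tested members, ordered by size within each complex, nuclear genes in grey and mitochondrial genes in green. Most nuclear points lie within 0.3 of 0; the lowest nuclear points are Ndufa4l2 at -0.88 and the complex IV tissue isoforms Cox4i2, Cox8b, Cox6a2 and Cox7a1, and mt-Co3, with at most 27 reads per library, lies among them at -0.49.

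In complex I, which takes electrons from NADH, 35 of 46 nuclear members had a positive fold change, with a median of 0.08. Ndufb3, an accessory subunit of the membrane arm, was at 22.1, 21.6 and 23.6 CPM in WT and 25.1, 27.3 and 28.5 CPM in KO. Its groups did not overlap, and the log2 fold change came to 0.27 (SE 0.114, edgeR adjusted p = 0.323). Ndufa3, another accessory subunit, was at 38.1, 29.3 and 32.3 CPM in WT and 41.1, 41.0 and 38.4 CPM in KO, also without overlap (log2 fold change 0.27, edgeR adjusted p = 0.358).

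Ndufb10, of the membrane arm, differed little between any 2 pools, at 57.5, 56.9 and 61.7 CPM in WT and 57.7, 58.2 and 62.9 CPM in KO. The 8 Ndufaf assembly factors had fold changes from -0.17 to 0.39, of which 6 were positive. The smallest change that could be seen is limited by the error: the median standard error of nuclear members was 0.128 on the log2 scale, against 0.201 over all genes tested.

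Complex II, succinate dehydrogenase, was the one complex whose summed nuclear level, after TMM scaling, was higher in every KO pool. Its 4 genes summed to 413, 379 and 414 CPM in WT and 418, 425 and 449 CPM in KO, a difference of 401.9 ± 20.01 against 430.7 ± 16.5 CPM (SD, n = 3 each), and the nearest pools lay close together. Relative to total counts, without TMM scaling, the sums were 396, 409 and 417 CPM in WT and 398, 430 and 446 CPM in KO, and the groups overlapped. Sdhd, a membrane anchor, was at 55.8, 52.2 and 56.9 CPM in WT and 65.6, 58.2 and 65.7 CPM in KO (log2 fold change 0.20, SE 0.101, edgeR adjusted p = 0.391). The other anchor Sdhc was at 73.5, 70.7 and 84.4 CPM in WT and 74.1, 79.5 and 89.4 CPM in KO. The groups separated for Sdhd and overlapped for Sdhc.

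Sdhb, the iron-sulfur subunit, was at 72.7, 59.4 and 61.5 CPM in WT and 66.7, 68.7 and 80.8 CPM in KO. Sdha, the flavoprotein that oxidises succinate, was nearly flat, at 211, 196 and 212 CPM in WT and 211, 219 and 213 CPM in KO. Both overlapped between the groups.

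In complex III, 7 of 8 nuclear members were at or above 0, with a median of 0.07, and none separated the groups. Uqcrb, a small subunit at the ubiquinone site, had the smallest p, at 40.7, 34.1 and 38.3 CPM in WT and 38.4, 43.3 and 45.7 CPM in KO (log2 fold change 0.17, edgeR adjusted p = 0.533). The core protein Uqcrc1 was at 136, 126 and 138 CPM in WT and 135, 142 and 144 CPM in KO. Uqcrq, a small membrane subunit, was at 40.1, 32.6 and 39.3 CPM in WT and 37.5, 37.4 and 47.6 CPM in KO. The hinge protein Uqcrh, the highest per kilobase at 162, had a fold change of -0.03.

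In complex IV, cytochrome c oxidase, the ubiquitous subunits had positive fold changes and 4 of the 5 tested tissue isoforms negative ones; the exception was Cox6b2. All 11 members counted by symbol as ubiquitous subunits, Cox7a2l included, had a positive fold change, from 0.03 to 0.36 with a median of 0.14. Of these, 4 separated the groups, with KO higher (background 9.59%), and Cox7a2l was among the 4. With total counts as the scale, Cox4i1 turned to -0.01. Cox7c, a small membrane subunit, was at 30.2, 22.4 and 30.7 CPM in WT and 32.9, 33.5 and 40.3 CPM in KO (log2 fold change 0.36, SE 0.157, edgeR adjusted p = 0.334). Cox5a was at 53.4, 51.6 and 48.4 CPM in WT and 57.9, 55.3 and 68.2 CPM in KO (log2 fold change 0.24, SE 0.115, edgeR adjusted p = 0.365). For both, every KO pool was above every WT pool, without passing the test.

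Cox4i1, the most abundant nuclear complex IV gene, was nearly flat at 230.1, 209 and 235 CPM in WT and 227, 220.4 and 241 CPM in KO. The 11 ubiquitous subunits summed to 910.1, 802 and 912 CPM in WT and 920, 904 and 1042 CPM in KO, which overlapped. The other members that separated the groups, higher in KO, were Ndufa13, Cox6b1, Cox7a2l, Atp5e, Atp5g2 and Atp5j2; of these, Ndufa13, Cox7a2l and Atp5j2 were chosen for naming after their values were seen.

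In complex V, 13 of 17 tested nuclear members had a positive fold change, with a median of 0.12. Atp5e, the epsilon subunit of the central stalk, was at 66.0, 60.9 and 63.6 CPM in WT and 68.2, 72.2 and 74.0 CPM in KO (log2 fold change 0.17, SE 0.094, edgeR adjusted p = 0.433). Atp5g2, one of 3 genes for the membrane ring that turns with the proton flow, was at 16.4, 12.8 and 14.2 CPM in WT and 17.7, 16.9 and 17.1 CPM in KO. The 3 ring genes summed to 147, 145 and 155 CPM in WT and 152, 153 and 172 CPM in KO, and so overlapped.

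The abundant head subunits were flat. Atp5b was at 586, 612 and 651 CPM in WT and 576, 579 and 675 CPM in KO (log2 fold change -0.02). Atp5a1 was at 456, 453 and 463 CPM in WT and 459, 465 and 497 CPM in KO (log2 fold change 0.05). Atp5f1, the b subunit of the outer stalk, was at 95.0, 102 and 94.7 CPM in WT and 99.3, 110.4 and 116 CPM in KO, overlapping by 1 pool.

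The tissue isoforms carried the lowest nuclear fold changes of complexes I and IV. Ndufa4l2, a relative of Ndufa4 known for induction by hypoxia and high expression in pericytes, was at 20.01, 26.9 and 37.8 CPM in WT and 11.7, 13.9 and 20.4 CPM in KO. The highest KO pool overlapped the lowest WT pool by a narrow margin. On the log2 scale the difference, KO over WT, was -0.88 with an SE of 0.28 (edgeR, adjusted p = 0.233). It was called lower in DESeq2 (adjusted p = 0.0484), in edgeR with no filter on low counts (adjusted p = 0.0373, background 2.22% called lower) and in edgeR without WT pool 1 (adjusted p = 0.0468, background 5.97% called lower). Over all settings its adjusted p ran up to 0.598, without WT pool 3.

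Ndufa4, counted with complex I by its symbol but later assigned to complex IV, was at 49.6, 47.1 and 54.2 CPM in WT and 53.3, 59.6 and 64.4 CPM in KO. As a share of the pair, which no library scaling can alter, Ndufa4l2 made up 28.8%, 36.3% and 41.1% in WT and 18.04%, 18.9% and 24.1% in KO. The groups did not overlap in this share, and the log2 ratio of the pair differed by -1.10. Leaving out any 1 pool kept it between -1.31 and -0.92.

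Cox4i2, the isoform of Cox4i1 known from lung and from vessel wall cells, was at 9.81, 10.1 and 15.9 CPM in WT and 6.91, 7.35 and 10.1 CPM in KO (log2 fold change -0.55, SE 0.249, edgeR adjusted p = 0.345). It made up 4.09%, 4.59% and 6.33% of its pair in WT and 2.96%, 3.23% and 4.02% in KO, with no overlap. Of the muscle isoforms, Cox7a1 made up 8.44%, 9.42% and 10.5% of the pair with Cox7a2 in WT and 6.75%, 8.30% and 7.19% in KO. Cox8b made up 2.67%, 4.0% and 3.24% of the pair with Cox8a in WT and 1.88%, 1.59% and 2.42% in KO. The shares of both separated the groups, by a small gap.

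The share of Cox6a2, the third muscle isoform, overlapped, with 4.58%, 7.84% and 7.03% in WT and 4.53%, 4.02% and 5.28% in KO. Cox6b2, known from testis, overlapped fully, with 3.09%, 3.72% and 4.38% in WT and 3.97%, 3.44% and 3.09% in KO. The log2 fold changes were -0.52 for Cox8b, -0.40 for Cox6a2, -0.30 for Cox7a1 and 0.04 for Cox6b2, none past the test, and the edgeR adjusted p lay between 0.499 and 0.949. These genes are low in this preparation: the 5 tested complex IV isoforms reached 5.79 to 13.7 CPM per kilobase, against 297 for Cox4i1.

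Markers of the cells that are known to express these isoforms also had negative fold changes. The 10 mural markers, of pericytes and smooth muscle, all had negative fold changes, with a median of -0.93, and summed to 2439, 3025 and 4007 CPM in WT and 1773, 1512 and 2257 CPM in KO, with no overlap. The 14 cardiomyocyte markers all had negative fold changes, with a median of -0.53, and summed to 830, 1082 and 1189 CPM in WT and 765, 729 and 980.4 CPM in KO, which overlapped. None of the mural and cardiomyocyte markers was at 0 in every pool. Adipocyte markers were near the floor, with Ucp1, the brown fat uncoupling protein, at 0.427 to 0.885 CPM.

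All 10 endothelial and all 10 fibroblast markers had negative fold changes, with medians of -1.09 and -1.10. So had the tested Schwann (median -1.02), mesothelial (median -0.67) and erythroid markers (median -3.77). WT pool 1 weighs heavily in the erythroid median, since its erythroid sum of 1876 CPM stood far above the range elsewhere, 36.2 to 142 CPM. The 13 macrophage markers all had positive fold changes, with a median of 0.51, as had the 7 B cell markers (median 0.63). Of the 7 dendritic cell markers 5 were positive, with a median of 0.45 over the 7, and of the 7 neutrophil markers 6 (median 0.175). Not every immune list leaned this way. Of the 7 T cell markers 6 were negative (median -0.64), and of the 7 monocyte markers 4 (median -0.03). The part of these markers in the isoform shares and in the small positive lean of the ubiquitous subunits was not tested.

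**Figure D5:**
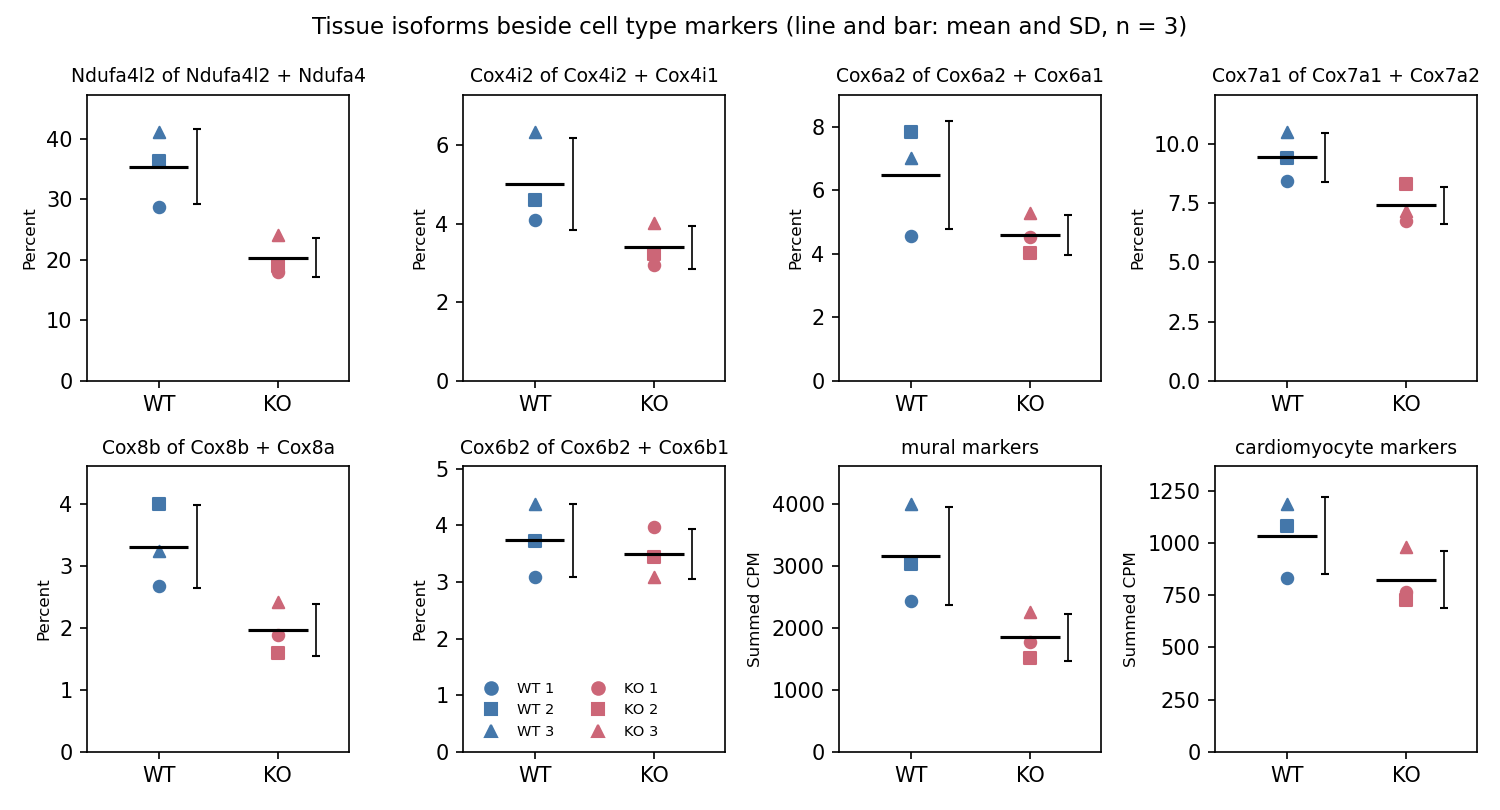
Share of each tissue isoform in its pair, in percent, for the 6 tested pairs, and summed CPM of the mural and cardiomyocyte markers, 1 point per pool with the group mean and SD. The Ndufa4l2 share runs from 28.8% to 41.1% in WT and from 18.04% to 24.1% in KO; the shares of Cox6a2 and Cox6b2 and the cardiomyocyte sum overlap between the groups.

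Genes around the chain were counted in the same way, and no gene of the 12 pathway lists was called in edgeR or DESeq2 on all 6 libraries. Without WT pool 1, edgeR called 2 glycolysis genes, Hk3 higher (background 2.33%) and Pfkm lower (background 5.97%); Hk3 was named after its value was seen. At an unadjusted p under 0.05, 11 of their 239 tested genes were higher (background 4.77%) and 1 was lower (background 10.6%). The mitochondrial ribosome, which translates the mitochondrial messages, leaned furthest: 67 of 77 tested Mrpl and Mrps genes had a positive fold change, with a median of 0.14, and 23 (29.9%, background 9.59%) had every KO pool above every WT pool. Their summed level was 1177, 1169 and 1191 CPM in WT and 1239, 1368 and 1291 CPM in KO, with no overlap. Among them Mrpl3 was at 28.3, 25.9 and 27.0 CPM in WT and 32.4, 34.6 and 32.1 CPM in KO (log2 fold change 0.29, SE 0.105, edgeR adjusted p = 0.263). The macrophage marker sum was higher in all KO pools than in WT pools 2 and 3, and WT pool 1 lay within the range of the KO pools. Its part here was not tested.

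Of the genes for mitochondrial DNA upkeep and transcription, 12 of 17 were positive and 3 had every KO pool above every WT pool (background 9.59%). These 3 are also the genes named for the smallest p. Slirp, which binds and stabilises mitochondrial messages, was at 11.4, 9.33 and 11.5 CPM in WT and 15.4, 14.2 and 15.8 CPM in KO (log2 fold change 0.50, SE 0.149, edgeR adjusted p = 0.227). Mgme1, a mitochondrial DNA exonuclease, had a log2 fold change of 0.44 and Tfb1m, which methylates mitochondrial ribosomal RNA, of 0.59, with edgeR adjusted p of 0.279 and 0.307. All 3 were higher in every KO pool without passing the test.

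The assembly factors of complexes II to V summed to 378, 364 and 392 CPM in WT and 404, 438 and 423 CPM in KO, and 23 of 31 were positive. Coa5, needed to build complex IV, was at 72.8, 67.4 and 62.3 CPM in WT and 85.9, 83.7 and 81.6 CPM in KO (log2 fold change 0.31, SE 0.100, edgeR adjusted p = 0.234). Sdhaf2, which helps to attach the flavin to Sdha, was at 26.5, 25.1 and 25.7 CPM in WT and 30.1, 32.8 and 30.1 CPM in KO (log2 fold change 0.27, SE 0.106, edgeR adjusted p = 0.290). Both separated the groups.

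The other lists had medians from -0.06 to 0.12. The citric acid cycle had a median log2 fold change of 0.03 (12 of 16 positive), fatty acid oxidation of 0.02 (7 of 13), the further electron carriers, among them cytochrome c, of 0.02 (6 of 8), glycolysis of 0.07 (11 of 16) and ubiquinone synthesis of 0.08 (8 of 11). Mitochondrial import had a median of 0.08 (16 of 22), and 5 of the 22 had every KO pool above every WT pool (background 9.59%) and 1 had every KO pool below (background 10.1%). The medians were 0.12 for carriers and uncoupling proteins (7 of 10) and 0.08 for the further complex I assembly factors (5 of 7). The regulators of respiratory genes had a median of -0.06 (5 of 11). The 3 with the smallest p among them were Esrra at 0.187, Hif1a at 0.188 and Myc at -0.207. Pfkm, the muscle form of the glycolytic phosphofructokinase, stood out within its list as lower in every KO pool, at 27.4, 33.3 and 42.7 CPM in WT and 24.1, 21.1 and 26.3 CPM in KO (log2 fold change -0.53, SE 0.18, edgeR adjusted p = 0.246).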

How the data were processed

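The authors deposited raw gene counts (whole numbers, Ensembl identifiers) for 6 libraries, with no normalization, per the file contents. The submitters' processing notes name STAR, HTSeq, DESeq2 and GRCm38, with versions, annotation and strand setting not given in the sources used here. The kit marks strand, per the labels' protocols. The 5 counters that name no gene entered neither library sizes nor tests: reads outside genes (5.90% to 8.62%), in several genes (1.49% to 1.72%), aligned to several places (7.58% to 8.67%), and 2 counters at 0. Of 55487 identifiers, 55141 had a symbol, and 55227 were in GENCODE M21. The rule also caught 13 symbols that are not protein coding, which were left out.

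edgeR 4.0.16 (R 4.3.3; filterByExpr with a minimum count of 10, TMM, quasi-likelihood F test, two-sided, Benjamini-Hochberg over 15707 genes, threshold 0.05) compared the 3 KO with the 3 WT pools. Levels are TMM-scaled CPM, per kilobase of the longest principal transcript where genes are compared. SE is the absolute log2 fold change divided by the square root of F. Scores are means of log2 CPM (prior count 2) and have no test, since an exact permutation test of 3 against 3 cannot give a two-sided p below 0.1. Sequence comparison used edlib 1.3.9.post1 and figures matplotlib 3.10.9. The test was also run on simulated data with known changes.

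Within a group, pools differed beyond counting noise (chi-square per degree of freedom 34.7 to 76.5). Deviations of same-numbered pools correlated at 0.10, -0.16 and 0.01, so the numbers were not used as pairs. Named were all mitochondrial members, the 3 nuclear members per complex with the highest level per kilobase and the 3 with the smallest p at a mean CPM of at least 1, the isoform pairs, members with no read, and up to 3 genes per pathway list by p. 1 gene that this rule names is not reported here. Members, lists and named genes were chosen with earlier results of these data known. Other settings were DESeq2 1.42.0, limma-voom (limma 3.58.1), 3 other scalings, 2 other filters, a replicate block, another prior count and each library left out.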

Additional observations from a re-analysis of the deposited data

How the results depend on the processing

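No member was called higher in any setting. 1 member, Ndufa4l2, was called lower without the filter on low counts, in DESeq2 and without WT pool 1, against 0 otherwise; those settings called 782, 831 and 1338 genes against 2. Members at an unadjusted p under 0.05 numbered 1 with total counts, with scaling from nuclear genes and among genes with a mean CPM of 5 or more, and from 1 to 5 with 1 library left out, against 2. The mean log2 difference of nuclear complex IV was 0.16 without tissue isoforms, against 0.00 with them. Only the set of genes in the mean differed. The tested isoforms left out were Cox4i2 (log2 fold change -0.55), Cox8b (-0.52), Cox6a2 (-0.40), Cox7a1 (-0.30) and Cox6b2 (0.04). Why most of these were negative was not tested.

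With the replicate number as a block, 0 members were called, 3 had an unadjusted p under 0.05, 70 of 91 nuclear members were positive, and 3 genes were called in all.

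Of 35 named members, 13 changed sign in some setting, and none of these passed the test. With total counts, Cox4i1 was at -0.01 and Cox6b2 at -0.004. With 1 library left out, the values ran from -0.027 to 0.066 for Cox4i1, -0.024 to 0.16 for Cox6a1, -0.063 to 0.178 for Cox6b2, -0.032 to 0.15 for Cox7a2, -0.004 to 0.192 for Uqcrq, -0.199 to 0.203 for mt-Co1, -0.79 to 0.218 for mt-Co3, -0.292 to 0.087 for mt-Cytb, -0.319 to 0.056 for mt-Nd1, -0.32 to 0.079 for mt-Nd2, -0.316 to 0.088 for mt-Nd4, -0.438 to 0.052 for mt-Nd5 and -0.582 to 0.278 for mt-Nd6. The mitochondrial to nuclear log2 ratio, KO minus WT, was -0.122 over all 9 tested mitochondrial members, which include the barely counted mt-Nd3 and mt-Co3. With 1 library left out this ratio ran from -0.305 to 0.119, with the positive value without KO pool 3. Among members at a mean CPM of at least 5, which leaves the 7 counted mitochondrial genes, the ratio was -0.21 on all 6 libraries. Low counts limit the precision for the tissue isoforms. With 3 pools a group, shifts near the median standard error of 0.128 were not detectable.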
